A study of Mus musculus with 3 samples.

Results

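The replication-dependent histone genes are the clustered genes that supply H1, H2A, H2B, H3 and H4 for the packaging of newly copied DNA. All protein-coding genes of the GENCODE vM21 annotation (mm10) whose symbol starts with Hist1h, Hist2h, Hist3h or Hist4h were taken, which gave 67 of 21755 protein-coding genes on the autosomes and the X chromosome. The data are single-nucleus multiome libraries of heart tissue from mice labelled WT, made after sunitinib plus Yoda1, sunitinib or vehicle, with 1 library for each treatment. Sunitinib is a tyrosine kinase inhibitor used against cancer, and Yoda1 is a small molecule that opens the mechanosensitive channel Piezo1. The groups were read from titles that carry only the words TKI, Yoda1 and Control together with the design text, and the 3 months in every title is not stated to be an age or a treatment time. Open chromatin was measured as the deposited ATAC fragments, pieces of DNA between 2 cuts of the transposase Tn5, and the RNA side was not analysed here. The value of a gene is the number of fragments that overlap the 1 kb on either side of its transcription start, so it describes accessibility and not transcription or cell division.

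In dividing cells these genes are transcribed mainly in S phase, when the coactivator NPAT gathers at them in the histone locus body, and their messages end in a stem-loop instead of a poly(A) tail. Non-dividing cells such as adult cardiomyocytes draw instead on replication-independent variants, for example H3.3 from H3f3a and H3f3b, which are made outside S phase from polyadenylated messages. H2A and H2B genes often sit head to head and share 1 promoter, and most H2A, H2B, H3 and H4 genes occur in many near-identical copies, while the H1 linker histone genes differ more from each other.

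The sunitinib plus Yoda1 library held 583792 fragments, the sunitinib library 23653823 and the vehicle library 18704581. Barcodes with at least 1000 fragments and strong enrichment at transcription starts were called nuclei, which gave 12 nuclei in the sunitinib plus Yoda1 library, 3857 in sunitinib and 2696 in vehicle, with medians of 1326, 2368 and 2156.5 fragments. In the sunitinib plus Yoda1 library 42.1% of fragments shared both ends with another fragment, against 0.197% in the sunitinib and 0.201% in the vehicle library when thinned to the same number, so only its fragments with at least 100 read pairs were used, and only as a whole library. The sunitinib and vehicle libraries had 22 nucleus barcodes in common, and leaving these out gave a log2 ratio of 0.28 in place of 0.27 for all histone windows, sunitinib over vehicle. With 1 library for each treatment there is no replicate check, and no p-value is given. The 95% intervals below cover counting error only, and PCR copies are not independent molecules. The intervals are exact, except those at the vehicle class composition, which use a normal approximation.

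The 67 genes comprised 6 of H1, 18 of H2A, 18 of H2B, 12 of H3 and 13 of H4. The Hist1 genes numbered 54 and lay on mm10 chromosome 13 in 3 groups separated by more than 200 kb, called here Hist1-1 (18 genes, chr13:21715763-21837530), Hist1-2 (5 genes, chr13:22035164-22043676) and Hist1-3 (31 genes, chr13:23531050-23934851). Hist2 held 10 genes at chr3:96219865-96270132, Hist3 held 2 at chr11:58948920-58956830, and Hist4h4 lay alone at chr6:136801553-136804415. Starts of 13 gene pairs pointed away from each other, and 12 of these pairs joined an H2A with an H2B gene over 176 to 306 bp. The windows of such a pair overlap almost fully, so its 2 single-gene values rest largely on the same fragments. Sums of FPM over a group of genes count each fragment once. The shares of fragment ends and of short fragments given below instead count it once for each gene window it falls in.

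The DNA just upstream of the starts shows how the families differ in the elements they carry. RefSeq promoters of GRCm38.p6, running from 250 bases before to 50 after the start, were found for 62 of the 67 genes and searched on both strands. The CCAAT box, bound by the NF-Y complex, was present in 53 of 62 histone promoters (85.5%, against 37.4% of 32544 promoters of all genes), in every H1, H2A, H2B and H3 promoter but in 3 of 12 H4 promoters. TATAAA was present in 35 of them (56.5%, against 13.6%). The octamer ATTTGCAT, bound by Oct-1, was present in 13 (21.0%, against 1.75%), of which 7 were H2A and 6 H2B. GGTCC, a core of the H4 proximal element, was present in 11 of 12 H4 promoters and in 26 of 62 in all (41.9%, against 45.4%). TTTCCCGC, a form of the E2F site, was present in 1 (1.61%, against 1.08%). Below are the 200 bases before the start for the 5 H1 genes of somatic cells, whose accessibility differed between classes of nuclei, then for Hist1h4h, Hist1h4a and Hist2h2ac, which are 3 of the 6 most accessible members. Capitals mark these 5 elements on either strand, and adjoining or overlapping matches run together.
Hist1h1a (chr13:23763468-23763667, plus strand): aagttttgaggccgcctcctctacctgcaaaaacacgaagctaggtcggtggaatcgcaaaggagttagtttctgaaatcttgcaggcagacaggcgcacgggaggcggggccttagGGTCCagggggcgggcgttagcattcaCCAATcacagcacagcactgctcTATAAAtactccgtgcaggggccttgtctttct
Hist1h1b (chr13:21780626-21780825, minus strand): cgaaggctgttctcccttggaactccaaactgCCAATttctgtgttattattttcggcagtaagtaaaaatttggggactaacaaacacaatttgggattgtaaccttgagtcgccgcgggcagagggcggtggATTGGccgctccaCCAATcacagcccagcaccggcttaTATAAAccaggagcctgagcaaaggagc
Hist1h1d (chr13:23554832-23555031, plus strand): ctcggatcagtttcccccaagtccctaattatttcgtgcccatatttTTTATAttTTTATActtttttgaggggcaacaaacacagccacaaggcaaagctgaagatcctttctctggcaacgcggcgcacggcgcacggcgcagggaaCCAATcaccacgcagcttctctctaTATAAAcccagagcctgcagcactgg
Hist1h1c (chr13:23738607-23738806, plus strand): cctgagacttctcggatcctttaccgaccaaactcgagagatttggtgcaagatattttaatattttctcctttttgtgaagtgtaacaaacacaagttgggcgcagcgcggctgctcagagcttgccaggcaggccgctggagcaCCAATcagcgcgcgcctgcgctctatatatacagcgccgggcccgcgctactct
Hist1h1e (chr13:23622559-23622758, minus strand): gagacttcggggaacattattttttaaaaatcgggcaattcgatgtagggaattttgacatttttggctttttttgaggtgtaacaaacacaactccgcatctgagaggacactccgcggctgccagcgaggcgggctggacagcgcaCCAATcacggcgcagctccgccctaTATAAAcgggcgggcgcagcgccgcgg
Hist1h4h (chr13:23530844-23531043, plus strand): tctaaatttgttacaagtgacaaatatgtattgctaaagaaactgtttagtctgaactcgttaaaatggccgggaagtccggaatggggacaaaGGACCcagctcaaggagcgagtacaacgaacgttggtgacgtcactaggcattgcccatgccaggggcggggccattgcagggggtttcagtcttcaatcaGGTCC
Hist1h4a (chr13:23761250-23761449, minus strand): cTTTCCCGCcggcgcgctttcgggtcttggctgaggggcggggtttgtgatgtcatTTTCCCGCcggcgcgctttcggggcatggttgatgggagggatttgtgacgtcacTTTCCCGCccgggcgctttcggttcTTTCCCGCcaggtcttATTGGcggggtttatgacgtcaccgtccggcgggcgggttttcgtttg
Hist2h2ac (chr3:96220881-96221080, minus strand): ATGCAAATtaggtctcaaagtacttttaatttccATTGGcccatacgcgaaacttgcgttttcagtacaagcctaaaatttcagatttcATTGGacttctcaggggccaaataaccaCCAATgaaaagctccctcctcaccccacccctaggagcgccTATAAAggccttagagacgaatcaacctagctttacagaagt
All 5 H1 sequences held CCAAT. Hist1h1b held 3 copies, and Hist1h1c was the only one of the 5 without TATAAA in these 200 bases. Hist1h4a carried TTTCCCGC 4 times, and it was the 1 histone promoter with that match. Hist2h2ac joined an octamer, 3 CCAAT boxes and TATAAA. A match describes these letters in this window and does not show that a factor was bound.

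Most histone gene starts were open in the heart nuclei. Over all called nuclei of both libraries the median member had 13.7 fragments per 1000000 fragments of the same nuclei (FPM), against 6.68 for the median protein-coding gene and 25.1 for the 88 cytosolic ribosomal protein genes, a set of housekeeping genes. Levels of 53 members were above the median gene, and those of 3 were above the 90th percentile. These 3 encode H4: Hist1h4h had 35.4 FPM in the sunitinib and 32.6 in the vehicle library, Hist1h4a had 34.6 and 33.0, and Hist2h4 had 33.7 and 33.2. Next came Hist3h2a (31.3 in sunitinib, 26.0 in vehicle), the H2A gene Hist2h2ac (30.3 and 26.4) and the H1 gene Hist1h1c (29.4 and 25.5). The intervals of the libraries overlapped for each of these 6 genes. The log2 ratio, sunitinib over vehicle, had an interval that excluded 0 for Hist3h2a alone among them (0.26, 0.02 to 0.51). By family the median member had 12.3 FPM for H1, 13.4 for H2A, 14.1 for H2B, 10.1 for H3 and 16.0 for H4.

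**Figure D1:**
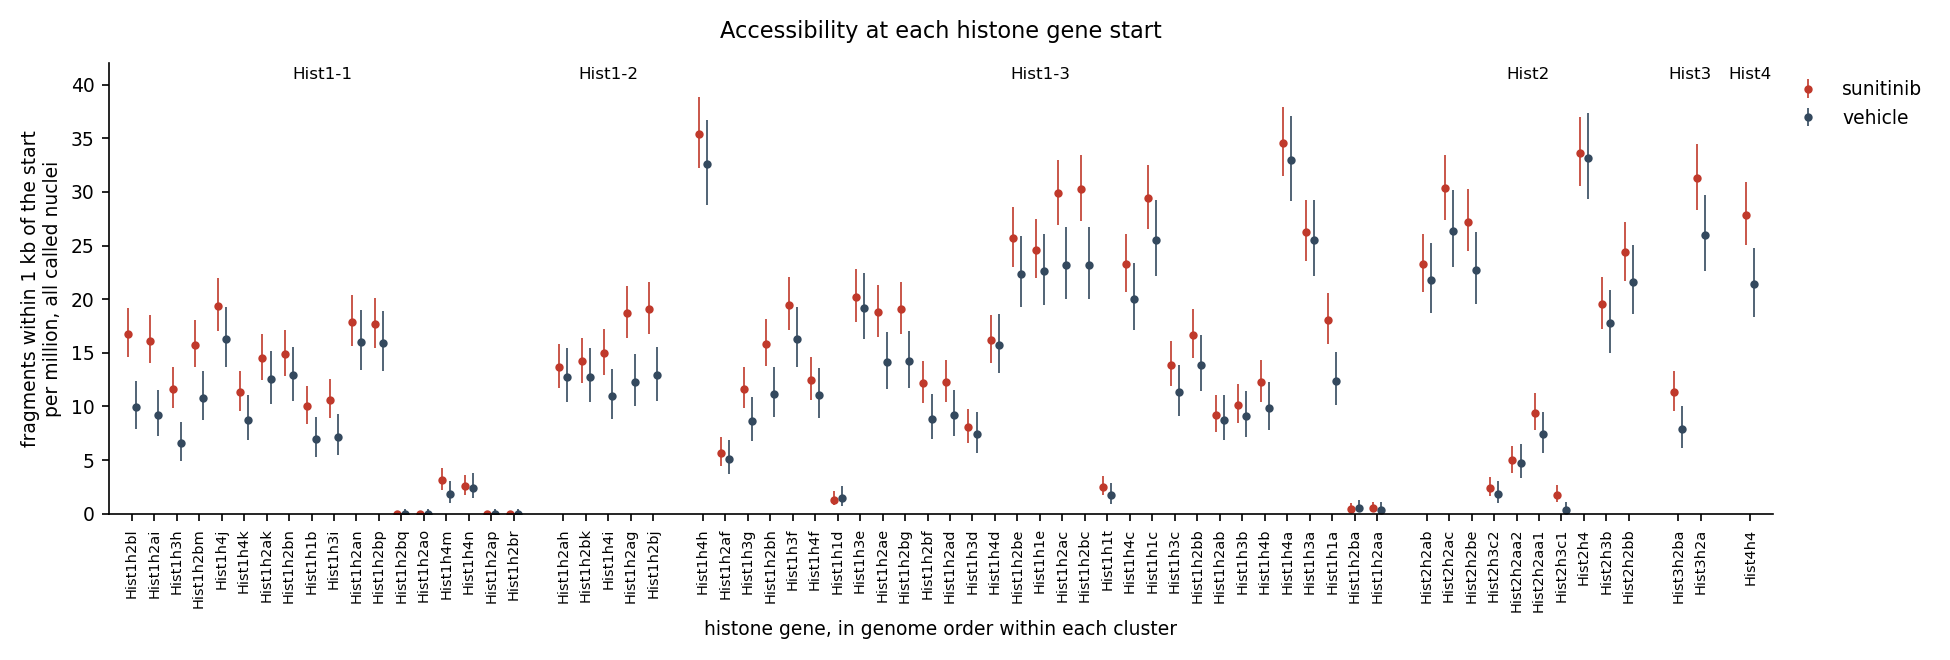
FPM within 1 kb of each of the 67 histone gene starts in all called nuclei, sunitinib (red) and vehicle (blue), in genome order within each cluster; bars are exact 95% Poisson intervals. Hist1h4h, Hist1h4a and Hist2h4 stand highest, and Hist1h2bq, Hist1h2ao, Hist1h2ap and Hist1h2br lie at 0.

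Accessibility was concentrated at the gene starts and not spread over the clusters. In Hist1-1 the windows held 4.96 FPM per kb in sunitinib and 3.71 in vehicle, and the DNA between them 0.445 and 0.325. In Hist1-3 the windows held 7.52 in sunitinib and 6.47 in vehicle, and the DNA between them, which includes the starts of 6 other protein-coding genes, 0.617 and 0.505. The gene starts thus stood out from the DNA between them in both libraries.

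Of the 67 members 57 passed the minimum used for ratios (at least 50 fragments over both libraries and 15 expected in each), and the 10 others had under 50 fragments. Hist1h2aa and Hist1h2ba, a divergent pair known for expression in the testis, had 7 and 6 fragments in the sunitinib and 3 and 4 in the vehicle library. Hist1h1t, the testis H1, had 2.48 FPM in sunitinib and 1.70 in vehicle. Hist1h2bq, Hist1h2ao, Hist1h2ap and Hist1h2br had 0 fragments in both libraries, which allows up to 0.233 FPM in sunitinib and 0.365 in vehicle. The promoters of Hist1h2bq and Hist1h2br were identical over all 300 bases compared, and those of Hist1h2ao and Hist1h2ap over 200, and whether the 0 comes from closed chromatin or from reads that match both copies was not tested. Hist1h4m and Hist1h4n, which differ at 1 of 299 bases, kept 55 and 53 fragments over both libraries, and Hist2h3c1 and Hist2h3c2, which differ at 1 of 285, kept 26 and 46. The 34 members with at least 50% of their 50-base transcript words also present in another gene had a median of 10.7 FPM, against 17.0 for the other 33. The 34 include the 4 members at 0. They also include Hist2h3b and Hist2h2bb, which share all their words with 1 gene, Gm20628, but no promoter words with another member. This split is therefore no measure of reads that match several copies. How the authors' pipeline placed reads that match several copies is not given in the sources used here, and levels of near-identical copies are uncertain for that reason.

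Hist1h1d, another H1 gene, showed that the annotated start matters. At its GENCODE start it had 1.32 FPM in the sunitinib and 1.46 in the vehicle library. At the RefSeq start, 1770 bp downstream, it had 16.8 and 11.1. The DNA printed above for Hist1h1d lies before that RefSeq start.

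**Figure D2:**
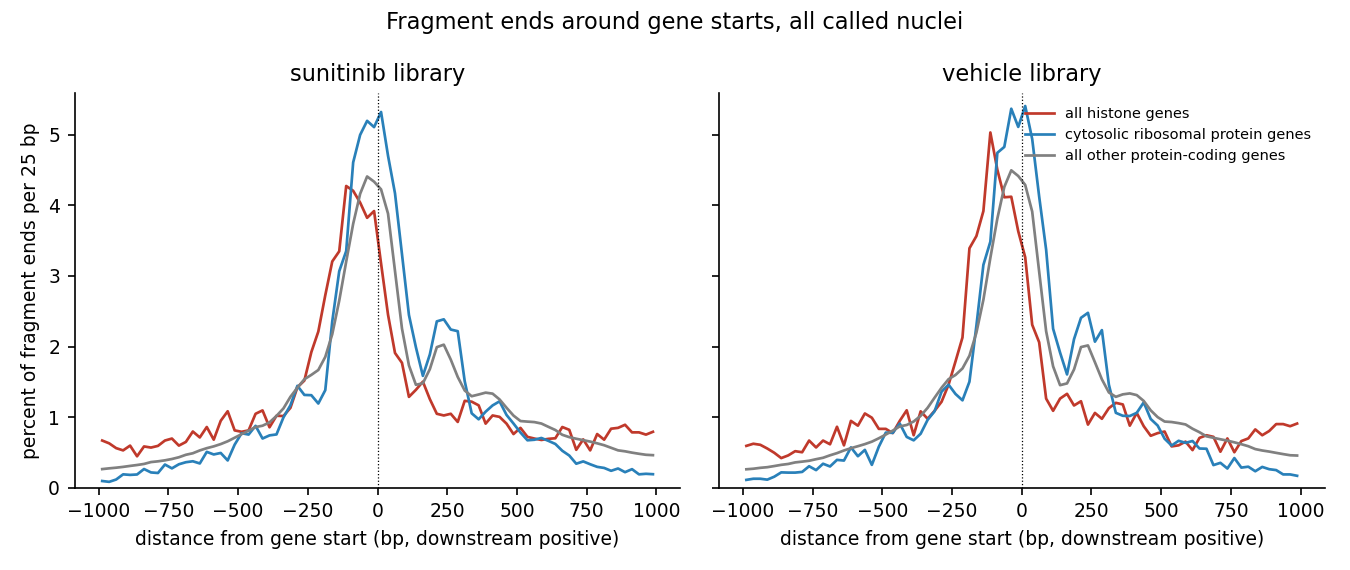
Share of fragment ends (percent per 25 bp) by distance from the GENCODE gene start in all called nuclei, sunitinib at left and vehicle at right, for the histone genes, ribosomal protein genes and other protein-coding genes. An end counts once for each gene window it falls in. The histone curve is high upstream of the start and lower downstream of it than the other curves.

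More of the open site lay upstream than downstream of the GENCODE start. Of the fragment ends within 1 kb of histone starts, 33.7% under sunitinib and 36.2% under vehicle fell within 250 bp upstream and 16.8% and 15.9% in the 250 bp downstream. Ribosomal protein genes had 32.6% and 33.0% upstream and 30.1% and 30.6% downstream, so the histone genes had the smaller share over the gene itself. For the H2A genes of H2A/H2B pairs the upstream share was 41.2% in sunitinib and 45.4% in vehicle, and that side is the promoter shared with the H2B gene. Fragments shorter than the DNA of 1 nucleosome made up 45.8% of histone window fragments in sunitinib and 45.0% in vehicle, against 49.2% and 49.8% at other protein-coding genes and 38.7% and 38.2% over the genome. The median member is 539 bp long, so a window of 1 kb reaches past the end of most members. RefSeq places many of these starts further upstream than GENCODE does, by up to 98 bp, and some downstream. No profile was made at RefSeq starts, so the part of this offset in the shares was not tested.

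The classes of nuclei differed more than the treatments. Nuclei were clustered on genome tiles that left out the histone windows, and clusters were named from marker genes: Cd3d, Cd3e, Cd8a, Cd8b1, Rag1 and Dntt led the T-like cluster, and Myh6, Ttn, Ryr2 and Myl2 the cardiomyocyte-like one. All 12 T markers were at least 2-fold more accessible in T-like nuclei than elsewhere over gene body and upstream DNA in the pooled libraries, and all 10 cardiomyocyte markers in cardiomyocyte-like nuclei. Within 1 kb of their starts 12 of 12 T markers in sunitinib and 11 of 12 in vehicle were higher in T-like than in other nuclei, and 9 of 10 cardiomyocyte markers in either library were higher in cardiomyocyte-like than in other nuclei. The B-like cluster was less clear, with 7 of 9 B markers and also 6 T markers past 2-fold. Within 1 kb of starts 6 of 9 B markers were higher there than in other nuclei in sunitinib and 8 of 9 in vehicle. The 9 together had 58.2 FPM in sunitinib and 154 in vehicle. In fibroblast-like nuclei the 10 fibroblast markers had 111 and 155, and in T-like nuclei the 12 T markers 314 and 279. One fibroblast-like cluster held 74 nuclei in sunitinib and 23 in vehicle, and another 234 and 352. The part of these differences in ratios within classes was not tested. Doublets were not removed.

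All histone windows together had 1095 FPM in T-like nuclei of the sunitinib library and 1020 in those of the vehicle library. Myeloid-like nuclei had 945 in sunitinib and 810 in vehicle, and B-like nuclei 920 and 950. Vascular endothelial-like nuclei followed with 729 and 678. Epicardial-like (635 and 621), mural-like (624 and 595) and fibroblast-like nuclei (580 and 543) came next, and cardiomyocyte-like nuclei were lowest with 416 and 391. The 3 immune classes thus stood above the tissue classes in both libraries. Myeloid-like and B-like nuclei changed places between libraries, and epicardial-like and mural-like nuclei differed by less than their intervals. At 1000 fragments per nucleus a T-like nucleus had on average 1.10 histone fragments in sunitinib and 1.00 in vehicle, a vascular endothelial-like nucleus 0.802 and 0.686, and a cardiomyocyte-like nucleus 0.416 and 0.360. At least 1 histone fragment was then seen in 64.9% of T-like nuclei in sunitinib and 60.7% in vehicle (86.1% and 79.5% before thinning), and in 32.5% and 29.2% of cardiomyocyte-like nuclei (54.7% and 53.8% before thinning). The variance over the mean of these counts, which is 1 for counts that follow a Poisson distribution, ranged from 0.895 to 1.26 across classes and libraries. It was 1.10 in T-like nuclei of sunitinib, where 1 nucleus held 8 fragments, and 1.23 in T-like nuclei of vehicle. Whether a subset of nuclei had more histone fragments was not tested.

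**Figure D3:**
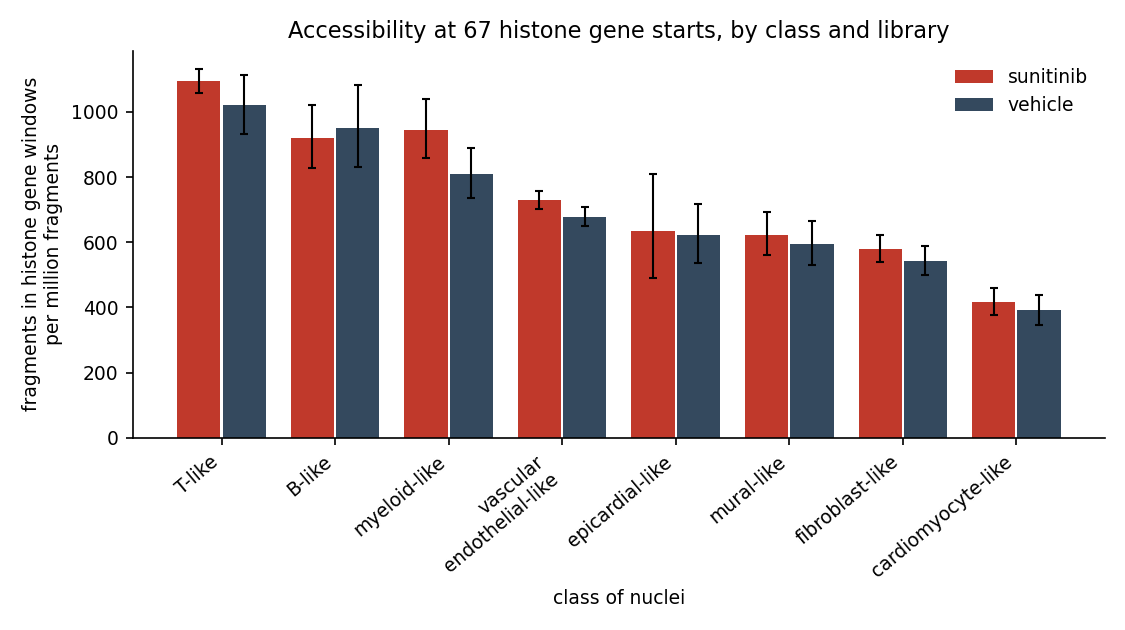
FPM in all histone windows, by class of nuclei, sunitinib (red, left of each pair) and vehicle (blue); bars are sums over the nuclei of 1 library with exact 95% Poisson intervals. T-like nuclei reach 1095 and 1020 and cardiomyocyte-like nuclei 416 and 391.

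Histone windows in T-like nuclei were 2.63-fold those in cardiomyocyte-like nuclei in the sunitinib library (log2 1.40, 95% interval 1.25 to 1.55) and 2.60-fold in the vehicle library (1.38, 1.17 to 1.60). T-like nuclei placed more of all their fragments at gene starts, 25.9% in sunitinib and 25.7% in vehicle, than cardiomyocyte-like nuclei did, 17.5% and 18.9%. Per fragment at any gene start the log2 ratio was 0.83 (0.68 to 0.98) in sunitinib and 0.94 (0.73 to 1.15) in vehicle. As ratios of FPM, ribosomal protein genes had a log2 ratio of 0.81 in sunitinib and 0.71 in vehicle. The 11 replication-independent histone variant genes had 0.18 and 0.17 on that scale. Per fragment at any gene start, the highest class stood 1.23-fold above the lowest for ribosomal protein genes in sunitinib and 1.26-fold in vehicle. For histone windows these folds were 1.78 and 1.92. Among single members 41 of 44 measured in the sunitinib library were at least 1.5-fold higher in T-like nuclei, where 61.1% of all measured genes were, and 0 were that much lower (1.24%). The median member had a log2 ratio of 1.33 and the median gene 0.76. The minimum for a measured gene applies to the sum over both classes, so members with few fragments in cardiomyocyte-like nuclei, such as Hist1h2bm with 79 and 1 and Hist1h2bk with 73 and 3, passed through their T-like fragments. The count and the median over measured members are therefore a description and no support for the difference, which rests on the sums over all 67 windows. In the vehicle library this count was not made.

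Hist1-1 differed most between these classes. It had 219 FPM in T-like nuclei against 45.6 in cardiomyocyte-like nuclei of the sunitinib library (log2 2.25, 1.82 to 2.74), and 160 against 31.7 in the vehicle library (2.31, 1.65 to 3.07). Within T-like nuclei the Hist1-1 level was thus higher in sunitinib than in vehicle, 219 against 160, on 717 and 79 fragments. The neighbouring Hist1-3 had 545 against 241 in sunitinib (1.18) and 561 against 226 in vehicle (1.31). The interval of Hist1-3 was 0.98 to 1.39 in sunitinib and 1.03 to 1.60 in vehicle, so it did not overlap that of Hist1-1 in either library. Hist1-1 held 717 of 3580 histone fragments in T-like nuclei of the sunitinib library (a share of 18.7% to 21.4%, exact binomial interval) and 15.6% of those in vehicle (12.6 to 19.1), and in cardiomyocyte-like nuclei 11.0% in sunitinib (8.05 to 14.5) and 8.10% in vehicle (5.20 to 11.9). Hist2 had log2 ratios of 1.35 in sunitinib and 1.31 in vehicle, Hist3 1.03 and 0.83, and Hist4h4 had intervals of 0.75 to 2.46 and 0.24 to 2.27. The families were close to each other, from 1.29 for H2A to 1.56 for H2B in sunitinib and from 1.10 for H2A to 1.74 for H1 in vehicle, with overlapping intervals.

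**Figure D4:**
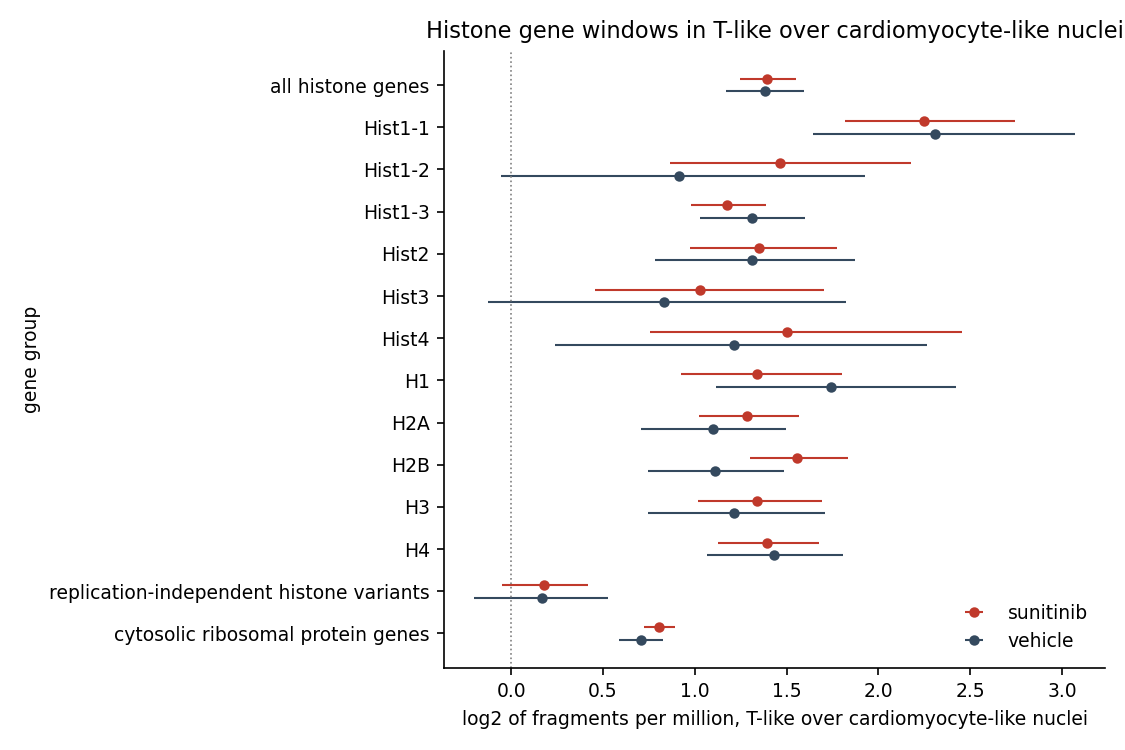
Log2 ratio of FPM in T-like over cardiomyocyte-like nuclei for each cluster and family of histone genes and 2 comparison lists, sunitinib (red) and vehicle (blue), with exact 95% intervals. Hist1-1 lies at 2.25 and 2.31 and the replication-independent variants at 0.18 and 0.17.

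The members with the highest and lowest ratios, named after their values were seen, came from several clusters. Hist1h2bm, an H2B gene of Hist1-1, had 79 fragments in T-like and 1 in cardiomyocyte-like nuclei of the sunitinib library (24.2 and 1.06 FPM; log2 3.93, 1.99 to 9.83). Hist1h4j, an H4 gene of Hist1-1, had 32.1 against 4.24 FPM (2.76, 1.52 to 4.82), and Hist1h2bk, an H2B gene of Hist1-2, 22.3 against 3.18 (2.60, 1.21 to 5.12). At the other end Hist1h4c had 28.4 against 23.3 (0.26, −0.40 to 1.03), the H3 gene Hist1h3f 26.0 against 21.2 (0.27, −0.42 to 1.08) and Hist3h2a 38.2 against 25.4 (0.56, −0.05 to 1.28). The intervals of these last 3 include 0, so a difference was not detectable at this depth. In the vehicle library Hist1h4c had 24.2 FPM in vascular endothelial-like and 6.89 in cardiomyocyte-like nuclei, unlike the 23.9 and 23.3 of the sunitinib library, and so its even level across classes was not seen in both.

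The H1 linker histone genes, which encode the proteins that bind DNA between nucleosomes, differed in how far T-like stood above cardiomyocyte-like nuclei. Hist1h1a had 37.3 FPM in T-like and 5.30 in cardiomyocyte-like nuclei of the sunitinib library (log2 2.68, 1.55 to 4.46), and 36.3 and 1.38 in the vehicle library. Hist1h1b had 24.5 and 6.36 in sunitinib (1.84, 0.76 to 3.43), and 24.2 and 1.38 in vehicle. Hist1h1d, taken at its RefSeq start, had 35.2 and 7.42 in sunitinib, and 36.3 and 2.76 in vehicle. These 3 were several-fold higher in T-like nuclei in both libraries, although the cardiomyocyte-like values rest on 1 to 7 fragments. Hist1h1c had 33.6 in T-like and 20.1 in cardiomyocyte-like nuclei of sunitinib (0.71, 0.03 to 1.53), and 50.5 and 17.9 in vehicle. Hist1h1e had 33.3 and 19.1 in sunitinib (0.77, 0.08 to 1.61), and 24.2 and 15.2 in vehicle. Hist1h1c and Hist1h1e, known as the H1 genes of many non-dividing cells, thus kept levels of 15.2 or more in cardiomyocyte-like nuclei, against 7.42 or less for the other 3.

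The H1 genes also differed in their ratio of T-like over vascular endothelial-like nuclei in the sunitinib library. Hist1h1b had 24.5 FPM in T-like and 4.93 in vascular endothelial-like nuclei (log2 2.28, 1.59 to 3.10), and Hist1h1a 37.3 and 13.6 (1.45, 0.99 to 1.95). Hist1h1e had 33.3 and 22.4 (0.57, 0.16 to 0.99), and Hist1h1c 33.6 and 33.8 (0.00, −0.38 to 0.37). The interval of Hist1h1c alone among these 4 included 0 in that library. In the vehicle library Hist1h1b had 24.2 in T-like and 8.19 in vascular endothelial-like nuclei, and Hist1h1a 36.3 and 11.1. There Hist1h1e had 24.2 and 24.2, and Hist1h1c 50.5 and 31.1 (0.72, 0.0006 to 1.35). The even level of Hist1h1c was thus not seen in both libraries. Over all members 27 of 54 measured in sunitinib were at least 1.5-fold higher in T-like nuclei (background, the share of all measured genes past the same fold, 16.1%) and 0 were that much lower (14.6%), and the median log2 ratio was 0.59 against 0.10 for all genes. The minimum applied to the sum over both classes here too, and these counts are a description. By cluster these were 9 of 12 in Hist1-1, 1 of 5 in Hist1-2 and 12 of 27 in Hist1-3. In vehicle 3 of 6 measured members were higher (12.3%) and 0 lower (11.2%), and Hist1h4h had 62.6 against 31.4 (1.01, 0.36 to 1.59).

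Members outside Hist1 added other patterns. So did the members whose share of the histone fragments varied most between classes, taken among those averaging at least 50 fragments per class. Members under that minimum, such as Hist3h2ba, could vary more. Hist3h2ba, an H2B gene, had 19.0 FPM in T-like, 8.62 in vascular endothelial-like and 2.12 in cardiomyocyte-like nuclei of sunitinib, and 16.2, 9.82 and 0 in vehicle, while Hist3h2a beside it had 38.2, 30.8 and 25.4 in sunitinib and 28.3, 29.1 and 24.8 in vehicle. Hist4h4 had 43.4, 21.2 and 14.8 in sunitinib and 48.5, 19.0 and 20.7 in vehicle. The Hist3 neighbours thus differed, with Hist3h2ba low and Hist3h2a high in cardiomyocyte-like nuclei, on 2 or fewer and 18 or more fragments. Over both libraries the divergent pair Hist1h2ac and Hist1h2bc held 4.59% and 4.66% of histone fragments in fibroblast-like and 2.96% and 3.11% in cardiomyocyte-like nuclei. Hist2h2bb held 3.53% in T-like and 1.92% in cardiomyocyte-like nuclei, Hist1h3a 3.01% in T-like and 4.49% in vascular endothelial-like nuclei, and Hist3h2a 3.40% in T-like and 6.21% in cardiomyocyte-like nuclei. Epicardial-like nuclei, a class with few fragments, entered this ranking too. There Hist1h2ac held 1.57% and Hist2h2bb 5.88%, so part of their variation rests on that class.

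Between vascular endothelial-like and cardiomyocyte-like nuclei 16 of 26 measured members were at least 1.5-fold higher in the endothelial class in sunitinib, where 53.3% of all genes were, and 6 of 11 in vehicle (35.9%). In the other direction 0 were past 1.5-fold in either library (0.53% and 1.08%). The share of members in sunitinib was near the background. Hist1h4h had 31.3 in vascular endothelial-like and 28.6 in cardiomyocyte-like nuclei of sunitinib (0.11, −0.48 to 0.79), and 31.4 and 26.2 in vehicle (0.23, −0.46 to 1.06). Both intervals for Hist1h4h, the most accessible member, included 0.

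After sunitinib the histone windows held more of the called nuclei's fragments, but the classes of nuclei also differed between the libraries. All called nuclei had 758 histone FPM in the sunitinib and 630 in the vehicle library (log2 0.27, 0.22 to 0.32). T-like nuclei, the class with the highest histone value, made up 34.5% of nuclei in sunitinib (1332) and 8.49% in vehicle (229). Outside the T-like and B-like classes the levels were 632 in sunitinib and 594 in vehicle (0.09, 0.03 to 0.15). When the sunitinib level of each class was weighted by the share of fragments that the class had in the vehicle library, the sunitinib value became 682 against 630 (0.11, 0.06 to 0.17). In whole libraries, where fewer nuclei of a class and less open chromatin per nucleus cannot be told apart, the levels were 639 and 440 (0.54, 0.50 to 0.58), and 27 of 61 measured members were at least 1.5-fold higher in sunitinib (background 6.96%) and 0 lower (3.16%). Gene starts as a whole held 19.2% of fragments in sunitinib and 16.2% in vehicle, the median gene had a log2 ratio of 0.23, and per fragment at any gene start the histone ratio was 0.30 (0.26 to 0.34). Barcodes not called as nuclei had 496 and 290.

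Within classes the difference in the sum over all histone windows was small. The log2 ratio, sunitinib over vehicle, was 0.22 (0.03 to 0.42) in myeloid-like and 0.11 (0.02 to 0.19) in vascular endothelial-like nuclei, whose intervals excluded 0. Per fragment at any gene start both intervals included 0, at 0.15 (−0.05 to 0.34) in myeloid-like and 0.03 (−0.05 to 0.11) in vascular endothelial-like nuclei. In vascular endothelial-like nuclei with at least 3000 fragments it was 0.06 (−0.05 to 0.17), and for fragments shorter than the DNA of 1 nucleosome 0.09 (−0.03 to 0.21). As a ratio of FPM it was 0.10 (−0.03 to 0.24) in T-like, 0.10 (−0.06 to 0.25) in fibroblast-like, 0.09 (−0.14 to 0.31) in cardiomyocyte-like, 0.07 in mural-like, 0.04 in epicardial-like and −0.05 (−0.29 to 0.20) in B-like nuclei, whose intervals included 0. For cardiomyocyte-like nuclei, the muscle cells of the heart, a larger difference than these bounds was not seen at this depth. The share of fragments at all gene starts in that class was 17.5% in sunitinib and 18.9% in vehicle.

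**Figure D5:**
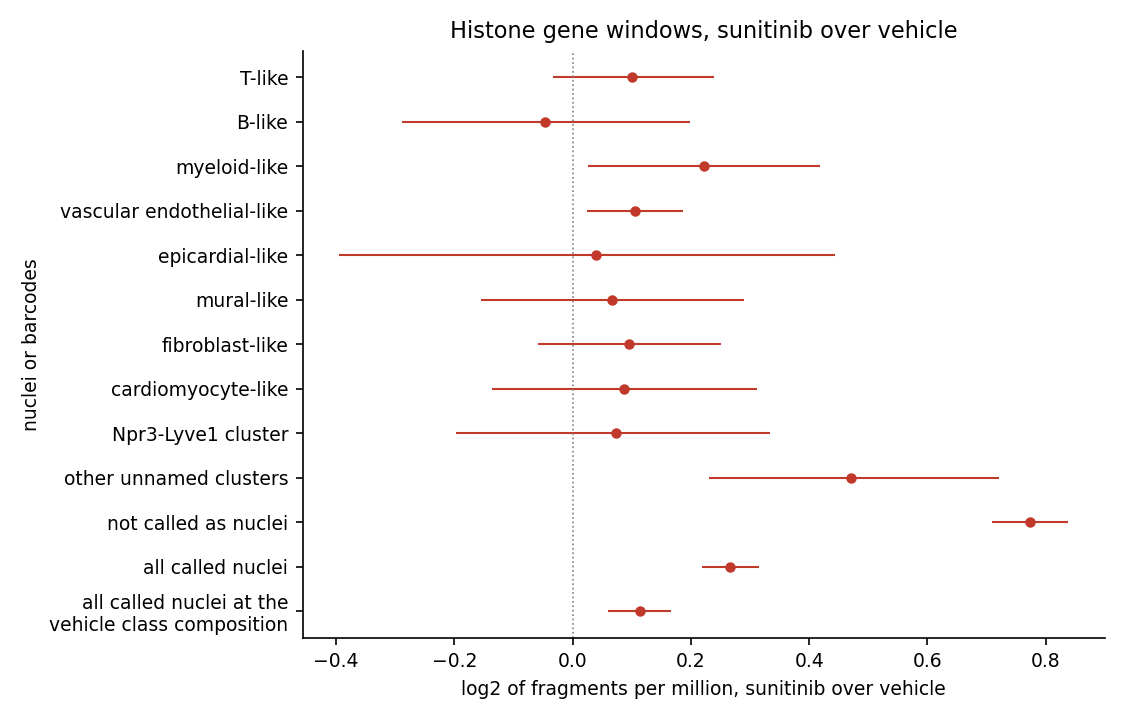
Log2 ratio of FPM in all histone windows, sunitinib over vehicle, for each class of nuclei, for barcodes not called as nuclei, for all called nuclei, and for all called nuclei at the vehicle class composition; bars are 95% intervals for counting error. All called nuclei lie at 0.27 and at the vehicle composition at 0.11.

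By cluster, all called nuclei had 131 FPM in sunitinib and 96.9 in vehicle at Hist1-1 (log2 0.43, 0.31 to 0.55), 47.2 and 36.2 at Hist1-2 (0.38), 387 and 331 at Hist1-3 (0.22), 123 and 110 at Hist2 (0.16), 42.6 and 33.9 at Hist3 (0.33) and 27.8 and 21.4 at Hist4h4 (0.38). Hist1-1 was thus the cluster with the largest ratio, and it was also the one with the largest excess in T-like nuclei. At the vehicle class composition this order did not hold: the log2 ratio was 0.20 (−0.09 to 0.49) for Hist4h4, 0.19 (−0.02 to 0.41) for Hist1-2, 0.18 (−0.04 to 0.41) for Hist3, 0.17 (0.04 to 0.31) for Hist1-1, 0.09 (0.01 to 0.16) for Hist1-3 and 0.07 (−0.06 to 0.20) for Hist2. All 6 intervals overlapped each other and that of the ribosomal protein genes (0.06, 0.03 to 0.09). By family the log2 ratio was then 0.20 (0.11 to 0.28) for H2B and 0.18 (0.08 to 0.27) for H2A. It was 0.10 (−0.01 to 0.22) for H3, 0.08 (−0.08 to 0.24) for H1 and 0.04 (−0.05 to 0.13) for H4. The H2B interval lay above that of the ribosomal protein genes, and those of the other families overlapped it. Within T-like nuclei Hist1-1 was also higher in sunitinib than in vehicle, as given above. The intervals of its share of histone fragments there overlapped (18.7% to 21.4% in sunitinib, 12.6% to 19.1% in vehicle). It includes the overlapping windows of Hist1h2ai and Hist1h2bl, each with 87 fragments in T-like nuclei of sunitinib and 1 in vehicle. The part of these windows in the cluster value was not tested.

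Of the 57 measured members 5 were at least 1.5-fold higher in sunitinib over all called nuclei, where 4.11% of all genes were, and 0 were that much lower (2.96%). All 57 had a log2 ratio above 0, with a median of 0.25 against 0.05 for all genes, of which 59.7% were above 0. The members were not independent in this, since they share the class composition of the library and some share fragments. The highest was the H3 gene Hist1h3h, with 11.6 FPM in sunitinib and 6.57 in vehicle (150 and 54 fragments; 0.82, lower bound 0.37). The adjacent divergent pair Hist1h2ai (16.1 and 9.24; 0.80, lower bound 0.42) and Hist1h2bl (16.8 and 9.97; 0.74, 0.38 to 1.13) overlaps the window of Hist1h3h, so these 3 form 1 site at the edge of Hist1-1. Hist1h2ag of Hist1-2 had 18.7 and 12.3 (0.60, 0.27 to 0.96), and Hist1h4m had 3.10 and 1.82 with an interval that includes 0 (0.74, −0.12 to 1.73). The lowest ratios were those of Hist2h4 (33.7 and 33.2; 0.02, −0.20 to 0.24), Hist1h3a (26.3 and 25.5; 0.04, −0.21 to 0.30) and Hist1h4d (16.2 and 15.7; 0.05, −0.28 to 0.38).

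Within classes few members could be measured in both libraries. In vascular endothelial-like nuclei 2 of 52 were at least 1.5-fold higher in sunitinib (background 2.71%) and 0 lower (0.742%), and 35 lay above 0 and 17 below with a median of 0.12 against 0.08 for all genes. The 2 higher ones were Hist1h3i (9.61 in sunitinib, 5.57 in vehicle; 0.76, −0.07 to 1.70) and Hist1h2bm (16.3 and 10.5; 0.62, 0.00 to 1.29). The lowest there was the H2A gene Hist1h2ak (10.8 and 15.7; −0.53, −1.16 to 0.09). In T-like nuclei 0 of 16 were higher (5.97%) and 1 of 16 was lower (4.04%), the H1 gene Hist1h1c, with 33.6 in sunitinib and 50.5 in vehicle (−0.61, −1.22 to 0.10). In fibroblast-like nuclei 1 of 13 was higher (7.3%) and 0 lower (4.23%). That gene was Hist3h2a, with 37.1 in sunitinib and 19.1 in vehicle (51 and 21 fragments; 0.94, 0.20 to 1.77). In cardiomyocyte-like nuclei 0 members reached the minimum. The counts within classes were near their backgrounds. Hist1h2bl in T-like nuclei, named after its values were seen, had 87 fragments in sunitinib and 1 in vehicle (26.6 and 2.02 FPM). Its divergent partner Hist1h2ai, whose window overlaps, had the same counts. Both were under the minimum of 15 expected in vehicle, so they are not among the 16 and no ratio is given. Their lower vehicle value is a description and rests on 1 fragment.

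Other genes of histone supply showed smaller ratios over all called nuclei. Of 15 measured genes for histone transcription and end processing, 0 were past 1.5-fold in either direction and the median log2 ratio was 0.16. Npat, the coactivator of these genes, had 45.1 in sunitinib and 43.9 in vehicle (0.04), and Slbp, which binds the stem-loop, 33.0 and 29.4 (0.17). Of 10 genes for chaperones and S phase kinases 0 were past it (median 0.06). Of 20 genes of S phase and mitosis 1 was higher, the primase subunit Prim1 with 8.84 in sunitinib and 5.59 in vehicle (0.65), and 0 were lower (median 0.11). Of 11 replication-independent variants 0 were higher and 1 was lower, H1fx with 4.50 and 7.66 (−0.77), with a median of −0.09. The background shares are those given above for all called nuclei. In T-like over cardiomyocyte-like nuclei of sunitinib, the S phase and mitosis genes had a median log2 ratio of 0.75 against 0.76 for all genes.

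The sunitinib plus Yoda1 library could be compared only as a whole library, and 258020 of its fragments were used. It held 89 histone fragments, which is 345 FPM (277 to 424), against 639 in the sunitinib and 440 in the vehicle library. The log2 ratio was −0.88 (−1.21 to −0.59) over sunitinib and −0.34 (−0.67 to −0.05) over vehicle. Hist1-1 had 8 fragments, 31.0 FPM, against 114 in sunitinib and 68.4 in vehicle, and Hist1-3 had 49, 190 FPM, against 324 and 229. A fragment was found at 50 of the 67 members, with at most 8 at 1 gene (Hist1h4h). Ribosomal protein genes had log2 ratios of −0.41 over sunitinib and −0.09 over vehicle, and the replication-independent variants −0.16 and 0.06. Cell markers differed as well. The 12 T markers summed to 15.5 FPM in sunitinib plus Yoda1, 107 in sunitinib and 44.9 in vehicle, with 8 of the 12 at 0 in sunitinib plus Yoda1, Cd3d and Cd3e among them. The 10 cardiomyocyte markers summed to 89.1, 44.9 and 46.6, with Myh6 at 0 in sunitinib plus Yoda1. Their part in the histone values was not tested, and treatment, library quality and the pipeline version, 2.0.2 for this library and 2.0.0 for the others, cannot be told apart.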

How the data were processed

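ATAC fragments of 3 single-nucleus multiome libraries of mouse heart were used. Per the file headers the authors made them with cellranger-arc on mm10, version 2.0.0 for sunitinib and vehicle and 2.0.2 for sunitinib plus Yoda1; the submitters' processing notes name Cell Ranger and Signac. The deposited value is a raw count: the number of read pairs found for a unique fragment of a barcode, without normalization or removal of barcodes.

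Nuclei were barcodes that had 1000 or more fragments, whose start-site enrichment (density of ends up to 50 bp away, relative to 1900 to 2000 bp) reached 4, and whose mononucleosomal fragments (147 to 294 bp) numbered less than 4 times the shorter ones. Nuclei were clustered by latent semantic indexing of 60000 tiles of 5000 bp, without 51 tiles at the members (29 components, 20 neighbours, Leiden resolution 0.8; leidenalg 0.10.2, scikit-learn 1.9.0, Python 3.11.15). A cluster was named X-like when at least 3 markers, and 50% of the list, were 2-fold more accessible than elsewhere and no other class came within 0.3 (log2). In addition, no other class could have more markers among the cluster's top 10 genes than class X had. The 50%, the 0.3 and a minimum of 50 nuclei were set after the clusters were seen. No doublet caller was run.

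Fragments overlapping the 1000 bp on either side of each GENCODE vM21 start were counted and scaled to 1000000 fragments in those nuclei (FPM). For log2 ratios 0.5 was added to either count, with conditional exact 95% intervals (scipy 1.17.1), and shares exact Clopper-Pearson ones. Ratios at the vehicle class composition were taken without the 0.5 and had approximate normal intervals (delta method). The floor for a count of 0 was set at 3 fragments. A gene counted as measured with 50 fragments over both sides and 15 expected in each, and as called past 1.5-fold. On simulated counts for sunitinib over vehicle in all called nuclei (13222 genes), the true ratio lay in 95.6% of intervals, and 98% of 2-fold genes and 1.6% of unchanged genes passed 1.5-fold.

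Named genes were the 6 with the highest and lowest ratio over all called nuclei, the 3 of each end within a class and the 6 most and least accessible. Others were the 6 whose share varied most between classes, among members averaging at least 50 fragments per class. The H1, Hist3, Hist4 and testis members and leading genes of the other lists were also named. The members, lists and comparisons were chosen with earlier results of these data known. Alternatives covered nucleus limits, window size, fragment length, scaling, clustering resolution, annotation and composition.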

Additional observations from a re-analysis of the deposited data

Results flagged for a closer look

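Fragments in barcodes not called as nuclei belong to no class. Their histone windows had 496 FPM in the sunitinib and 290 in the vehicle library, a log2 ratio of 0.77 (0.71 to 0.84) where called nuclei had 0.27. In these barcodes 14.2% of fragments in sunitinib and 11.3% in vehicle lay at gene starts.

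Unnamed clusters other than the Npr3-Lyve1 cluster, 270 nuclei in sunitinib and 161 in vehicle, had 458 histone FPM in sunitinib and 330 in vehicle, a log2 ratio of 0.47 (0.23 to 0.72), above the 0.22 of myeloid-like nuclei, the highest of the named classes. One of these clusters, with 72 nuclei in sunitinib and 9 in vehicle, held both Rag1 and 8 of 10 cardiomyocyte markers past 2-fold.

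B-like nuclei had a log2 ratio of −0.047 (−0.29 to 0.20), sunitinib over vehicle, where the 7 other named classes were above 0. The difference between the classes was not tested, and the B-like interval includes the values of 6 of those 7 classes. The B marker level in this class also differed between the libraries, 58.2 FPM in sunitinib and 154 in vehicle.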

How the results depend on the processing

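Of 125 values recomputed for 11 results, 117 stayed the same and 8 moved. A log2 ratio counted as the same when it lay within the 95% interval of the value reported. A count of members did so when it was within 1.5-fold of the count reported. A turn in direction was looked for only in ratios reported as 1.5-fold or more, and 0 were found. The log2 ratio of all histone windows, sunitinib over vehicle in all called nuclei (0.27), was 0.22 per fragment at any gene start, 0.18 in nuclei with at least 3000 fragments and 0.11 at the vehicle class composition. The ratio of T-like over cardiomyocyte-like nuclei was 0.83 in place of 1.40 in sunitinib and 0.94 in place of 1.38 in vehicle per start-site fragment, and 1.24 in sunitinib without the 18 genes of Hist1-1. The count of members at least 1.5-fold higher in sunitinib was 3 in nuclei with at least 3000 fragments and 11 with fragments shorter than 1 nucleosome's DNA, against 5; the count of lower members was 0 in all 10 alternatives. The cause was not tested, except that a composition change follows from the weights. Ranges over alternatives were 0.02 to 0.16 for T-like, 0.03 to 0.15 for vascular endothelial-like, 0.04 to 0.19 for fibroblast-like and −0.03 to 0.20 for cardiomyocyte-like nuclei, where the one value below 0 came from nuclei with at least 3000 fragments, and −1.18 to −0.65 over sunitinib and −0.52 to −0.32 over vehicle for sunitinib plus Yoda1. The composition weighting, the leaving out of Hist1-1 and of shared barcodes, and the RefSeq starts were chosen after seeing the data. No paired analysis was possible because each treatment has 1 library. Depth limits single members: in cardiomyocyte-like nuclei 0 members could be measured between treatments.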
